A study of Mus musculus with 74 samples.

Results

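Knockdown of Stag2 in erythroid-induced HPC-7 cells was described here through the contacts of captured promoters. HPC-7 cells are an established line of mouse blood progenitors. They carried a doxycycline-inducible short hairpin RNA against luciferase (the control, called Ery Luc) or against Stag2 (Ery shStag2), and both grew with 20 ng/ul stem cell factor and 4 U/l erythropoietin (EPO). Per the labels the hairpin was induced for 72 h, except in the second Ery Luc library, whose label says 73 h. Promoter capture Hi-C joins DNA ends that lie close together in fixed nuclei and then enriches the joined pieces that hold a promoter. The deposited lists give pairs of HindIII fragments, 1 captured and 1 other end, with a score of at least 5. Each Ery list pools 2 libraries, so nothing measured how libraries of a group vary, and all comparisons below are of 1 list with 1 list, with no p-value. The labels do not say whether the libraries of a group used different hairpins. Contacts within chromosomes were kept, 114254 in Ery Luc and 120982 in Ery shStag2, together 235236 of the 365959 contacts in the 3 lists of the series. The third list came from untransduced HPC-7 progenitors (HPC, 111657 contacts within chromosomes), which differ from Ery Luc in stage, transduction and medium. They grew with 100 ng/ul stem cell factor, and their labels name neither EPO nor doxycycline. Stag2 RNA and the labelled cell type were not checked here, since the lists hold no expression.

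Stag2 encodes a subunit of cohesin, the ring complex that extrudes chromatin loops and holds sister chromatids together. A cohesin ring carries either Stag1 or Stag2, and loops are known to stop where the zinc finger protein Ctcf is bound. In blood, STAG2 is known as a gene mutated in myeloid malignancies.

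Contacts were slightly more numerous with the Stag2 hairpin, and they lay farther apart. Ery Luc had contacts at 16270 captured fragments with a mean of 7.02 each, and Ery shStag2 at 16599 with a mean of 7.29. Of the 18665 captured fragments with a contact in either list, 14204 had one in both, 2066 only in Ery Luc and 2395 only in Ery shStag2. A fragment was said to gain or lose where the counts differed by at least 3 contacts and by at least 1.5 times. By this rule 2782 fragments gained (14.9% of those compared) and 2161 lost (11.6%). Just inside the rule, 1468 called fragments differed by exactly 3 contacts, and just outside it 3403 fragments differed by exactly 2. With the longer list shortened to the same number of contacts from the highest score down, 2365 gained and 2487 lost, so which direction led depended on the length of the lists. At a score of at least 7, 1369 of 12252 fragments gained (11.2%) and 966 lost (7.88%). Both thresholds called 775 fragments gained and 522 lost, while 11 and 8 were called in opposite directions.

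Short contacts were fewer and long contacts more numerous in Ery shStag2. Under 50 kb between fragment midpoints there were 11345 contacts in Ery Luc and 10203 in Ery shStag2, a ratio of 0.899. From 50 to 200 kb there were 42189 and 40376 (ratio 0.957), from 200 kb to 1 Mb 52665 and 59747 (1.13), and over 1 Mb 8055 and 10656 (1.32). As shares of each list, contacts under 50 kb were 9.93% of Ery Luc (exact binomial 95% interval 9.76 to 10.1) and 8.43% of Ery shStag2 (8.28 to 8.59). Contacts over 1 Mb were 7.05% (6.90 to 7.20) and 8.81% (8.65 to 8.97). These intervals cover counting error only, and neighbouring fragments are not independent. The median distance was 214 kb in Ery Luc, 241 kb in Ery shStag2 and 154 kb in HPC. The HPC list was unlike both Ery lists in its most distant contacts. Between chromosomes lay 0.469% of all HPC contacts, against 7.14% in Ery Luc and 7.46% in Ery shStag2. Over 10 Mb lay 0.034%, 2.43% and 2.39% of the contacts within chromosomes, in that order. The cause was not tested, and HPC values are set beside the others with this limit.

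**Figure D1:**
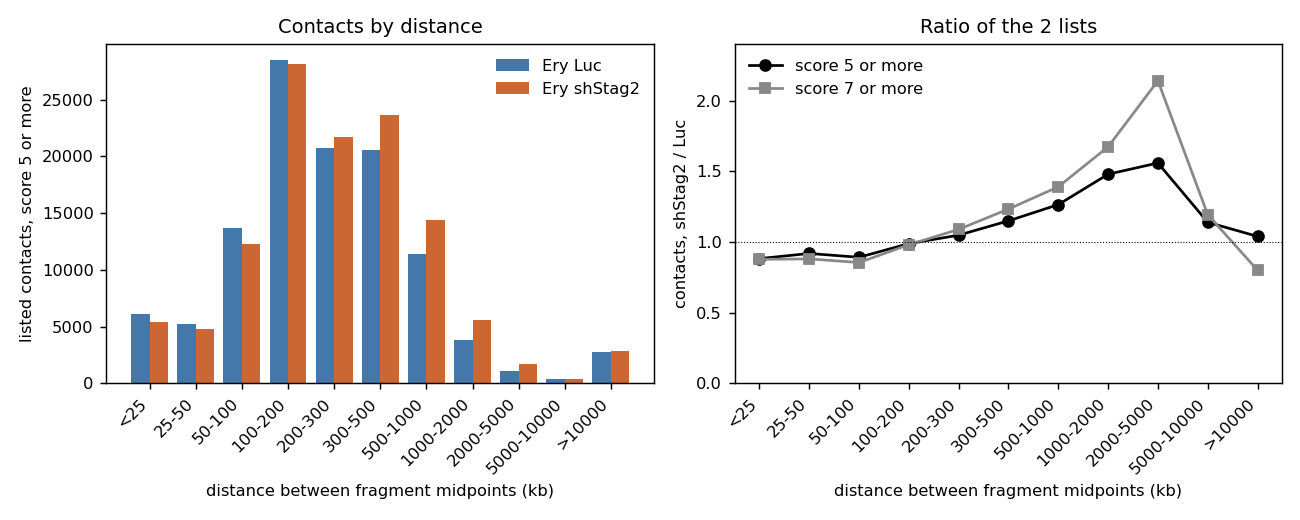
Left, number of listed contacts (score 5 or more) by the distance between fragment midpoints in kb, with Ery Luc and Ery shStag2 as paired bars. Right, Ery shStag2 contacts divided by Ery Luc contacts in the same distance steps, at a score of 5 or more and of 7 or more. The ratio is below 1 in the 4 steps up to 200 kb and is highest from 2000 to 5000 kb, at 1.56 and 2.14.

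In finer steps the ratio crossed 1 near 200 kb. It was 0.988 from 100 to 200 kb (28468 against 28139 contacts) and 1.05 from 200 to 300 kb (20734 against 21733). It then reached 1.26 from 500 to 1000 kb, 1.48 from 1000 to 2000 kb and 1.56 from 2000 to 5000 kb. Beyond 10 Mb the excess was not seen, with 2781 contacts in Ery Luc and 2891 in Ery shStag2 (ratio 1.04). At a score of at least 7 the same steps gave steeper values, 0.877 under 25 kb and 2.14 from 2000 to 5000 kb, but 0.800 beyond 10 Mb (721 against 577 contacts).

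The shift was present on nearly every chromosome. The share of contacts under 200 kb was smaller in Ery shStag2 on 21 of 21 chromosomes at both score thresholds, although on Y it rested on 60 and 77 contacts and moved only from 65.0% to 64.9%. The share over 1 Mb was larger on 19 of 21, the exceptions being chromosomes 11 and Y at a score of at least 5 and X and Y at 7. Chromosome 13, which carries the largest histone gene cluster, had the largest share over 1 Mb in both lists. Total contacts did not move alike. They were 1.21 times as many in Ery shStag2 on chromosome 9 (5686 and 6903) and 1.16 times on chromosome 2 (7873 and 9130), but 0.903 times on X (3089 and 2789), the chromosome of Stag2.

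**Figure D2:**
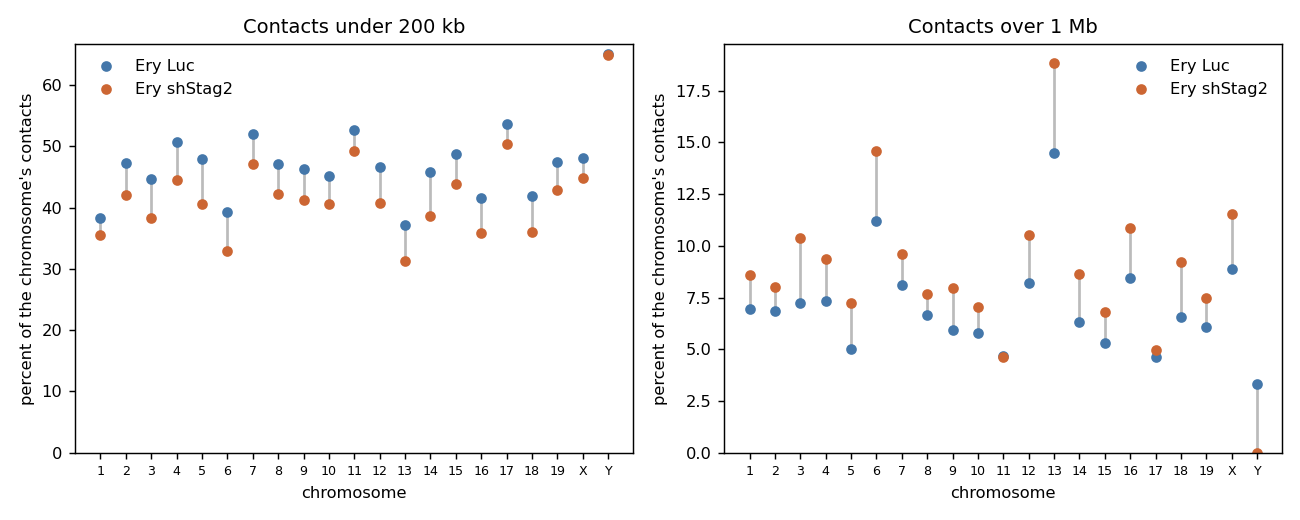
Percent of each chromosome's contacts (score 5 or more) that span under 200 kb (left) and over 1 Mb (right), with 1 point for Ery Luc and 1 for Ery shStag2 joined by a line. The Ery shStag2 point is lower in the left panel on 21 of 21 chromosomes, by very little on Y, and higher in the right panel on 19 of 21.

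Fragment by fragment, short contacts were more often lost and long contacts more often gained. For contacts under 200 kb, 977 of 11100 fragments gained (8.8%) and 1435 lost (12.9%). For contacts of 200 kb or more, 2330 of 17111 gained (13.6%) and 1221 lost (7.14%). Loss of near contacts together with gain of far ones at the same fragment was uncommon. Only 115 fragments did both, whereas 243 gained in both ranges and 245 lost in both. Among 2945 fragments with at least 10 contacts in each list, the fragment's own median distance was longer in Ery shStag2 at 1733 and shorter at 1059 (58.8% longer, interval 57.0 to 60.6). The typical change at such a fragment was small, with a median ratio of 1.01 and median distances of 193 and 205 kb.

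Near contacts were kept between the lists more often than far ones. Of the Ery Luc contacts, 54384 had the identical pair in Ery shStag2, which is 47.6% of Ery Luc and 44.95% of Ery shStag2. This share of Ery Luc was 61.6% under 50 kb, 54.8% from 50 to 200 kb, 43.8% from 200 kb to 1 Mb and 15.6% over 1 Mb. Strong contacts were mostly kept. Of those scoring 20 or more, 96.6% of the 1043 in Ery Luc and 96.5% of the 1360 in Ery shStag2 were in the other list, against 28.6% and 27.3% of those scoring from 5 to under 6. How far libraries of 1 group would differ in the same way cannot be read from pooled lists. Contacts whose other end was itself captured made up 20.7% of Ery Luc and 19.7% of Ery shStag2, and their medians were 199 and 218 kb. Other ends without a captured fragment or gene start had medians of 220 and 248 kb.

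The captured fragments with the largest gains called at both thresholds were led by Cmip, which encodes the c-Maf-inducing protein (chr8:117250873-117259959). It had 40 contacts in Ery Luc, 88 in Ery shStag2 and 80 in HPC. Its strongest contacts lay 130 to 207 kb away inside or just past Cmip itself. Usf2, a basic helix-loop-helix transcription factor, followed with 44 and 82 (99 in HPC), and Dse, an enzyme of dermatan sulphate synthesis, with 40 and 77 (88 in HPC). In these 3 promoters Ery shStag2 and HPC were both well above Ery Luc, and near and far contacts rose together in number. Contacts of Cmip under 200 kb went from 26 to 56 and those farther from 14 to 32. Gadd45g, a stress-response gene, had 58 and 87 (52 in HPC), with scores above 20 in both lists at other ends 372 to 378 kb away.

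A second kind of gain was made of far contacts. Styk1, which encodes a kinase-like receptor, had 57 contacts in Ery Luc and 92 in Ery shStag2 (63 in HPC), of which 46 and 77 spanned over 1 Mb. Those with the highest scores met fragments around Klre1, a natural killer cell receptor gene, 1769 to 1781 kb away. The score of 1 of them was 23.0 in Ery Luc and 93.8 in Ery shStag2. The pair with the captured Klre1 fragment had a score of 33.6 in Ery Luc, and it was in Ery shStag2 with swapped columns at 60.7. Chordc1, a co-chaperone of Hsp90, had 6 and 39 contacts (7 in HPC), and 5 and 35 of them lay 2000 to 4000 kb to its lower-coordinate side, among them fragments of Cep295 and Smco4. The fragment of Plagl2 and Pofut1 had 7 and 41 contacts (12 in HPC), and that of Ntn3 and Tbc1d24 had 9 and 42 (18 in HPC). Both gained under 200 kb (6 to 28 and 5 to 28) as well as beyond. For Usf2, Styk1 and Plagl2 the tables used here give no strand, so both annotated ends of the gene were taken as possible starts.

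Among the losses, 2 of the largest were on X. Sh3kbp1, an adaptor in receptor endocytosis, had 62 contacts in Ery Luc and 16 in Ery shStag2 (6 in HPC), and Tmem164 had 72 and 34 (22 in HPC). All 16 contacts of Sh3kbp1 under 200 kb were absent from Ery shStag2, while 4 contacts 292 to 336 kb away inside the gene scored over 10 in both lists. Etv2, an ETS factor of blood and vessel development, had 37 and 7, with 18 and 1 under 200 kb. Lmf2 and Ncaph2 share a fragment that had 78 and 50. Ncaph2 encodes a condensin subunit, another ring complex of chromosomes. The fragment of Qpctl and Snrpd2 had 59 and 27, that of Ahsa1 and Vipas39 45 and 19, that of Grin1 40 and 14, and that of Ccdc107 and Sit1 36 and 10. At all of these 8 fragments contacts were fewer both under 200 kb and beyond. Counting contacts between 2 captured fragments for both ends, which the lists give only once, took away the calls of Gadd45g (61 and 90) and of Lmf2 and Ncaph2 (81 and 55).

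**Figure D3:**
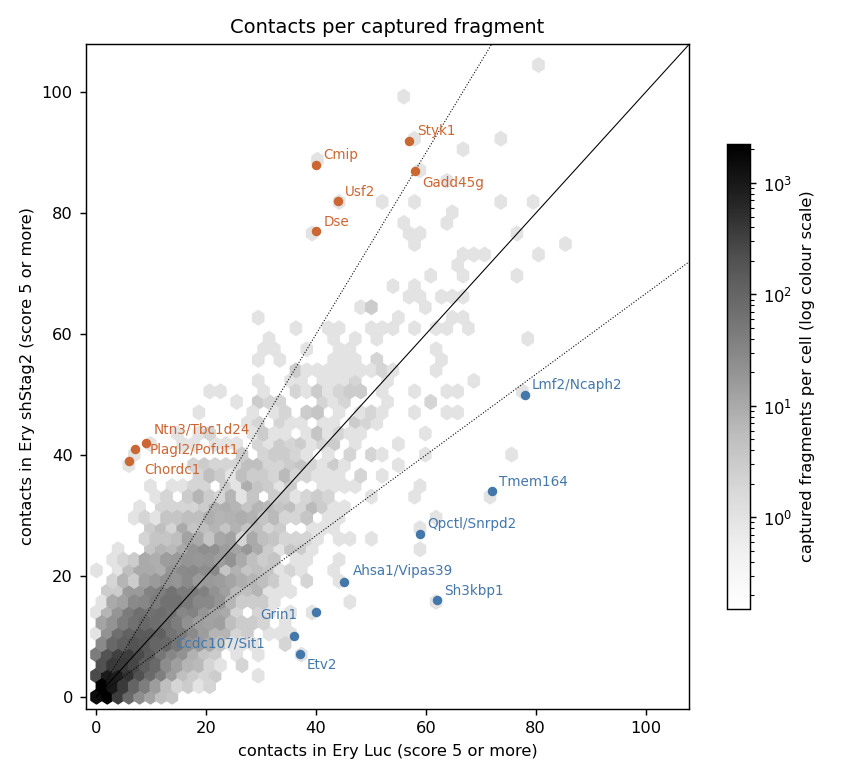
Contacts per captured fragment within chromosomes (score 5 or more) in Ery Luc (x axis) and Ery shStag2 (y axis), with grey shading for the number of fragments. The solid line marks equal counts and the dotted lines a 1.5-fold difference. Coloured points are the 8 fragments named for gains (Cmip, 40 to 88, at the top) and the 8 named for losses (Sh3kbp1, 62 to 16).

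Genes were counted by adding up the fragments that hold their start. Of 15658 protein-coding genes with a contact, 2451 gained (15.7%) and 1945 lost (12.4%), and at a score of at least 7, 1298 of 10939 gained (11.9%) and 933 lost (8.53%). Gene groups are read against these shares, at the same score threshold. Neighbouring genes often share a fragment, so counts within a group are not independent. Of 136 called genes considered for naming, 113 kept the call when contacts between captured fragments were counted for both ends. Those that lost it include Epb41, Angpt1, Il6ra, Ngp, Pds5a, Esco2, Mau2, Ier2, Fos, Rpa1, Rpl28, Rpl32, Rpl13 and H1f3, all described below by their own listed contacts.

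Of the erythroid transcription factors 1 gained and 2 lost of 19 (5.26% and 10.5%, against 15.7% and 12.4% of all genes). At a score of at least 7, 4 gained and 1 lost of 19, against 11.9% and 8.53% of all genes, so the lead of losses was not seen there. Klf1, which drives globin and heme genes in red cell precursors, had 18 contacts in Ery Luc, 6 in Ery shStag2 and 15 in HPC from its fragment chr8:84898227-84903910. At a score of at least 7 it had 7 and 2. Its contacts within 100 kb on the lower-coordinate side were 10 and 2. Its pair with the captured fragment of Calr, 56.1 kb away, had a score of 9.69 in Ery Luc. The same pair was in Ery shStag2 with swapped columns, at 7.76. With such pairs counted for both ends Klf1 had 24 and 12 contacts. Gata1, the master regulator of the lineage, had 13 and 8 contacts at the lower threshold but 1 and 3 at the higher one. Mafg, a partner of the erythroid factor Nfe2, gained, with 2 and 11. Tal1, which assembles the complex of Gata1 with Lmo2 and Ldb1, had 35 and 47. That passed the rule only at the higher threshold (12 and 20). Foxo3 (24 and 24), Sox6 (14 and 15), Lmo2 (14 and 12) and Ikzf1 (52 and 48) were not called.

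Heme synthesis genes went both ways, with 3 gained and 4 lost of 18 (16.7% and 22.2%, against 15.7% and 12.4% of all genes). At a score of at least 7 there were 3 gained and 1 lost of 14. Losses fell on Uros (9 and 0), which makes uroporphyrinogen, and Urod (16 and 7), which decarboxylates it. They also fell on Alas2 and the mitochondrial glycine carrier Slc25a38 (4 and 1 each). Alas2 encodes the erythroid form of the first enzyme of the pathway. Gains fell on Ppox (10 and 21) and Fech (9 and 18), the last 2 steps of the pathway, and on Blvra (1 and 6), which acts in heme breakdown. The Urod fragment is shared with Hectd3 and that of Uros with Bccip. Alad (58 and 47) was not called. With contacts between captured fragments counted for both, Ppox had 20 and 29 and was no longer called.

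Iron handling genes had 0 gained and 3 lost of 15 at a score of at least 5 (0% and 20.0%, against 15.7% and 12.4% of all genes). At 7 there were 1 gained, Aco1 (11 and 20), and 3 lost of 12. At a score of at least 5 the losses were Slc40a1, the iron exporter ferroportin (11 and 3), Tfrc, the transferrin receptor (8 and 3), and Pcbp2, an iron chaperone (9 and 5). At 7 Slc40a1 (5 and 0) and Tfrc (4 and 1) were among the losses, while Pcbp2 had 2 and 1 and was not. All 11 contacts of Slc40a1 in Ery Luc spanned under 200 kb. Over the list, contacts under 200 kb numbered 73 in Ery Luc and 48 in Ery shStag2, and longer ones 44 and 49. Of the red cell membrane and skeleton genes 1 gained and 3 lost of 16 (6.25% and 18.75%), and 1 and 2 of 9 at the higher threshold. Ank1, which encodes an ankyrin of the membrane skeleton, had 7 and 0 contacts over fragments at both its annotated ends (3 and 0, and 4 and 0). Which of these ends is the start is not in the tables used here. Epb41 had 10 and 6, while Ermap had 5 and 9. Globin genes had few contacts, and 1 of 7 lost (14.3%), with 0 of 5 called at the higher threshold. Hbb-bh1, an embryonic beta-like globin gene, had 12 and 5 over 2 fragments, but 14 and 14 when contacts with captured other ends were counted for both.

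Of 21 genes of EPO signalling 4 gained and 5 lost (19.0% and 23.8%, against 15.7% and 12.4% of all genes). At a score of at least 7, 4 gained and 3 lost of 16. Jak2, the kinase bound to the EPO receptor, had 17 contacts in Ery Luc and 7 in Ery shStag2 (11 in HPC), and 9 and 1 at a score of at least 7. Its Ery Luc contacts all lay 100 to 320 kb to the lower-coordinate side, where 4 were listed in Ery shStag2. The strongest, at Ak3 (205.7 kb, score 14.3 in Ery Luc and 14.6 in HPC), was in neither column order there. Close to it, at -207.24 kb (negative towards lower coordinates), Ery shStag2 listed a contact scoring 6.08. The pair at -201.97 kb was in both lists, at 7.27 in Ery Luc and 6.9 in Ery shStag2. Stat5a and Stat5b, which carry the signal to the nucleus, share a fragment with 6 and 1 contacts. Their survival targets Pim2 (26 and 15) and Bcl2l1 (18 and 10) also lost, though Bcl2l1 had 5 and 7 at a score of at least 10. Gains fell on Cish (13 and 22), Ptpn6 (4 and 12) and Sh2b3 (1 and 4), known as negative regulators of this pathway, and on the hormone gene Erfe (8 and 18). Sh2b3 had 1 and 1 at a score of at least 7, on a fragment shared with Pheta1. Epor itself had 10 and 11. Other negative regulators were not called, among them Socs1 (7 and 7), Socs2 (4 and 6), Socs3 (2 and 1), Cbl, Cblb and Inpp5d. Under 200 kb Cbl had 16 and 15 contacts, Cblb 2 and 0 and Inpp5d 3 and 1. Over the list contacts under 200 kb numbered 113 and 84, and longer ones 71 and 92.

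**Figure D4:**
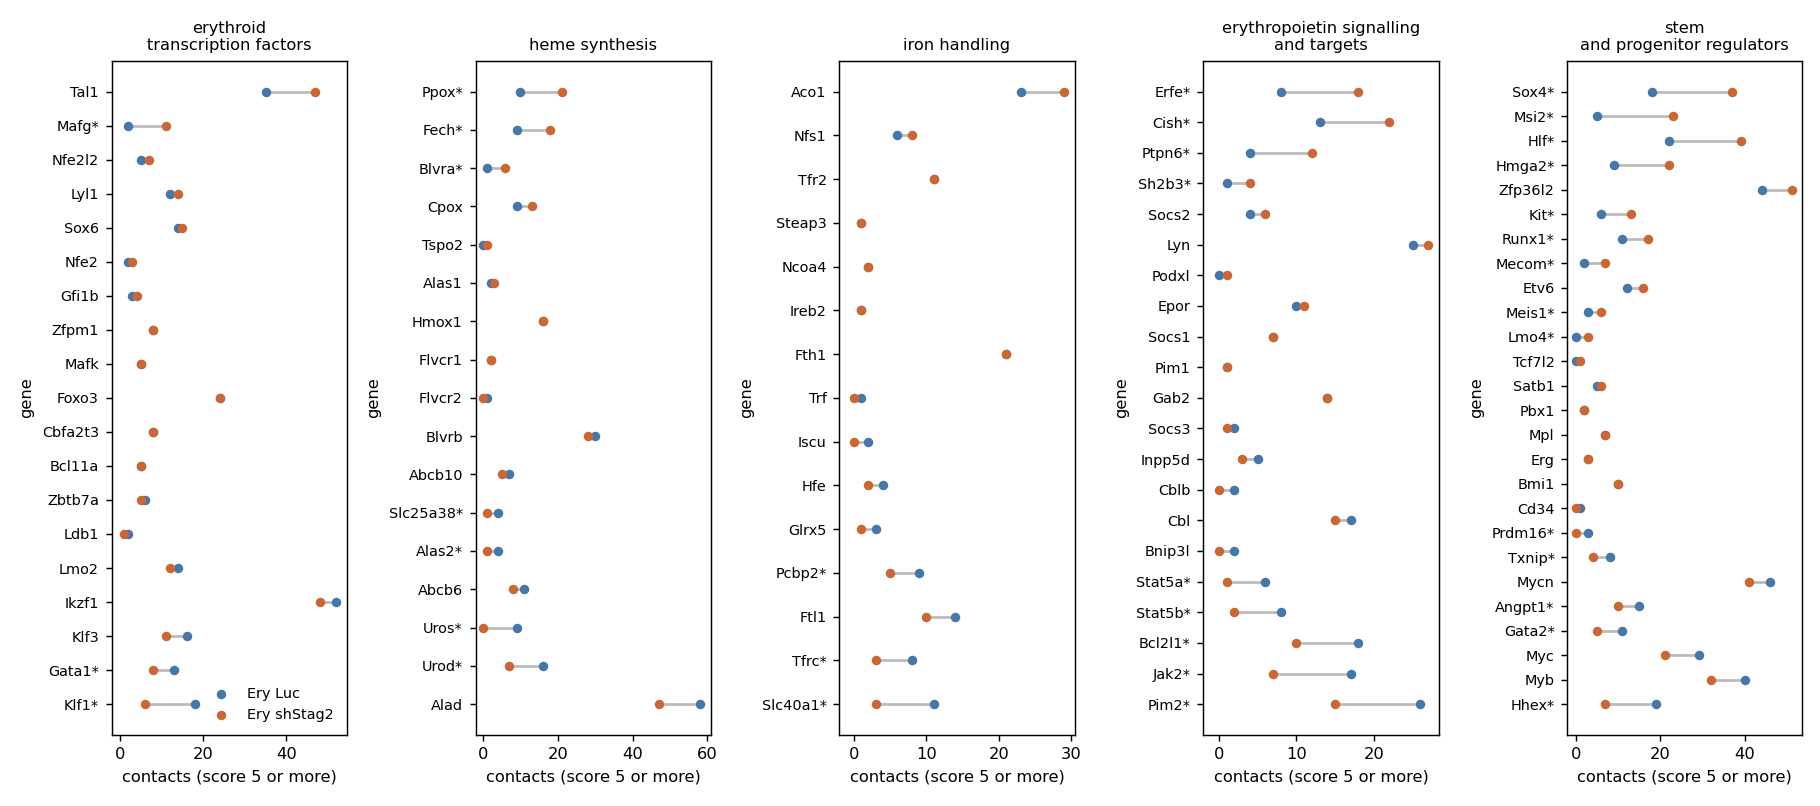
Contacts per gene (score 5 or more, within chromosomes) in Ery Luc and Ery shStag2 for the members of 5 gene lists that are reported here, ordered by the difference, with an asterisk for genes that gained or lost. Klf1, Slc40a1, Jak2, Pim2 and Hhex sit near the bottom of their panels with fewer contacts in Ery shStag2, and Ppox, Erfe, Sox4 and Msi2 near the top with more.

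Genes of stem and progenitor cells gained in larger numbers, 9 of 26, with 5 lost (34.6% and 19.2%, against 15.7% and 12.4% of all genes). At a score of at least 7 there were 5 gained and 3 lost of 22. Sox4, a transcription factor of immature cells, had 18 contacts in Ery Luc and 37 in Ery shStag2, all beyond 200 kb. Its strongest other end, 883.2 kb away within Cdkal1, scored 16.4 and 22.6. Msi2, an RNA-binding protein of stem cells, had 5 and 23, of which 3 and 17 lay 400 to 550 kb to its lower-coordinate side. Hlf had 22 and 39, meeting a run of fragments 221 to 230 kb away over Stxbp4 in both lists, and Hmga2 had 9 and 22. Kit, the receptor for stem cell factor, had 6 and 13 contacts (1 and 2 at a score of at least 7). Runx1 (11 and 17), Mecom (2 and 7) and Meis1 (3 and 6) gained by smaller steps, and Runx1 was not called with lists of equal length. On the losing side, Hhex had 19 and 7 and Gata2 11 and 5 contacts. The strongest Ery Luc contact of Gata2, 232.6 kb away in Eefsec (score 12.3), was not listed in Ery shStag2, while one 250.7 kb away scored 9.78 and 7.56. Angpt1 (15 and 10) and Txnip (8 and 4) also lost.

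**Figure D5:**
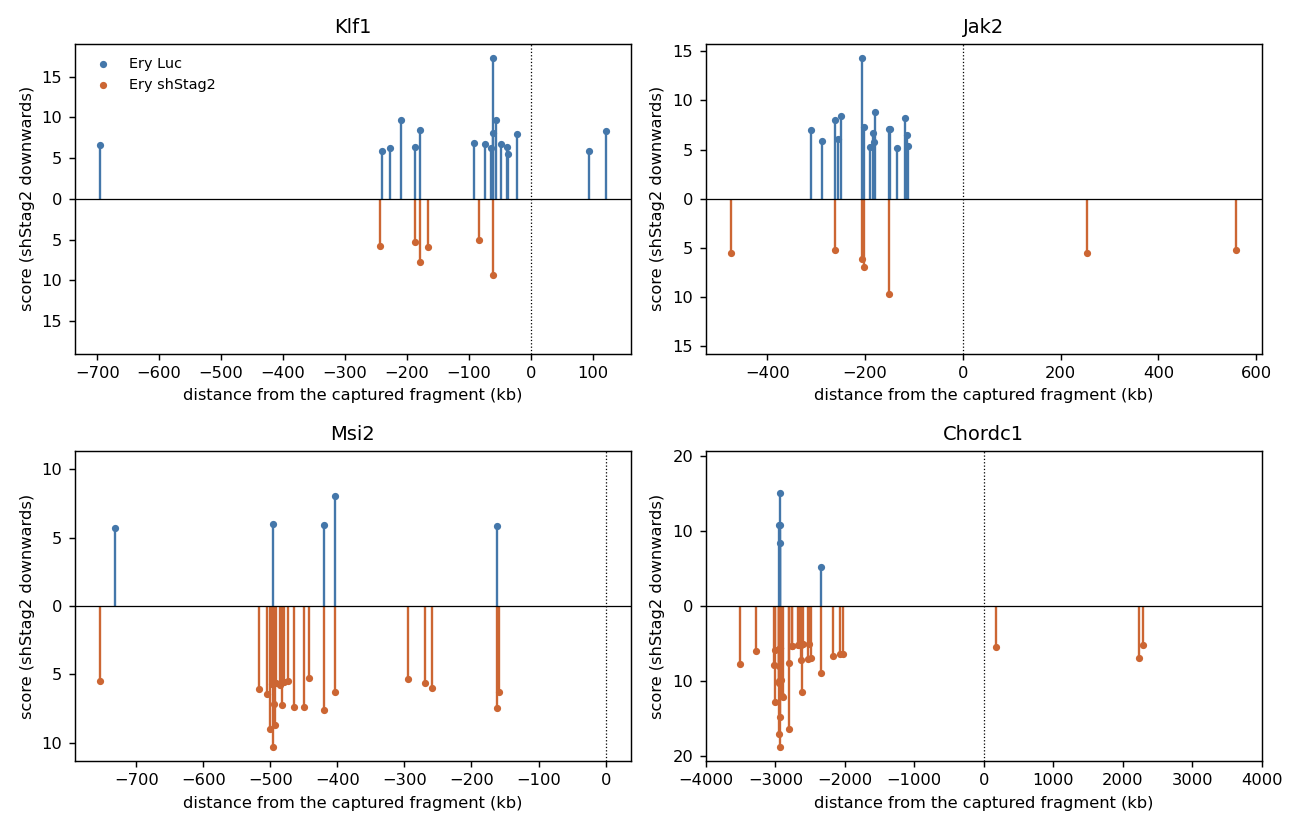
Every listed contact of Klf1, Jak2, Msi2 and Chordc1 by distance from the captured fragment in kb (negative towards lower coordinates), with the authors' score upwards for Ery Luc and downwards for Ery shStag2. Klf1 and Jak2 have 18 and 17 contacts above the line and 6 and 7 below it, Msi2 and Chordc1 have 5 and 6 above and 23 and 39 below, and pairs listed with swapped columns are not drawn. For Chordc1, 1 contact in each list beyond 4000 kb is outside the panel.

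The promoters themselves were read next to see which letters they hold at genes that moved. The stretches below are the 250 bases before the start, from RefSeq on GRCm38.p6, written 5′ to 3′ on the gene's strand. Capitals mark a match to 1 of the searched motifs, on either strand. They are shown because their genes carry called changes in the erythroid, cohesin and myeloid lists. Klf1 lost contacts and its window holds none of the motifs in their exact letters. It does hold TTATCA, which reads TGATAA on the other strand and differs from the searched AGATAA in its first letter. Espl1 (19 and 3) and Prtn3 (18 and 7, on a fragment shared with Plppr3) lost contacts, and Cebpb (5 and 14) and Camp (4 and 13) gained, each with 1 match. They lie at chr8:84901732-84901981, plus strand, chr15:102296043-102296292, plus strand, chr10:79879417-79879666, plus strand, chr2:167688665-167688914, plus strand and chr9:109849457-109849706, minus strand, in that order.
Klf1: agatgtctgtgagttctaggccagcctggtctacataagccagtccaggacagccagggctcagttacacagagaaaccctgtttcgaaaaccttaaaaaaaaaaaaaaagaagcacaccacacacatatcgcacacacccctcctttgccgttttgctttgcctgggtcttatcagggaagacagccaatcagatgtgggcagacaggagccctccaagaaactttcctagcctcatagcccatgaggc
Espl1: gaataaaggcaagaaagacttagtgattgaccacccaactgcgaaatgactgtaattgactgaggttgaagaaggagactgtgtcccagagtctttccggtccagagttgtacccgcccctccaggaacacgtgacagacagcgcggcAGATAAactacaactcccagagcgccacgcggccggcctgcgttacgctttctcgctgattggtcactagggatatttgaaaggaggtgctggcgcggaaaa
Prtn3: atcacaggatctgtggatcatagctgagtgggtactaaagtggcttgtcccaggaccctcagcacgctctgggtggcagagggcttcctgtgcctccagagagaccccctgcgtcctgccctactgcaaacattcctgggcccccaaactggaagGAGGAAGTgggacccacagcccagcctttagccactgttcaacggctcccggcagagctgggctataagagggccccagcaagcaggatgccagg
Cebpb: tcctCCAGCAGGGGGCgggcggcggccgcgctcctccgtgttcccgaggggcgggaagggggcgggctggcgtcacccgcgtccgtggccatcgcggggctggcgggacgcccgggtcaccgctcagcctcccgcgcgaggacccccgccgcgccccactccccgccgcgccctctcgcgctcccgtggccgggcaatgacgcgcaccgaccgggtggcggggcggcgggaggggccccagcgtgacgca
Camp: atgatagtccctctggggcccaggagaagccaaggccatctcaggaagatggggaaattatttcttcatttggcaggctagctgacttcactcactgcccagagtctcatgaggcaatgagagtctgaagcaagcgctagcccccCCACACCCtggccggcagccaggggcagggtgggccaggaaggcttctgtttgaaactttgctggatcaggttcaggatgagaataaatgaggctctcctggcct
The match is AGATAA (bound by GATA factors) in Espl1, GAGGAAGT (an ETS site of the Spi1 type) in Prtn3, the CTCF core motif in Cebpb and CCACACCC (bound by Klf1) in Camp.

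The motifs were then counted in all promoters. AGATAA was less common in promoters that gained or lost than in all promoters, but so were GAGGAAGT and the HindIII site. CCACACCC was more common in those that lost. A call needs a difference of at least 3 contacts, so called promoters also differ from the others in number of contacts. The median mean count of the 2 lists was 6 at gained and at lost fragments and 2.5 at the others. Motif shares were not adjusted for this. Windows of 300 bases, 250 before and 50 after the start, were at hand for 12596 genes with a contact, 1978 gained, 1567 lost and 9051 neither. Both strands were searched, and matches of different motifs may overlap. The CTCF core was in 0.809% of gained, 0.830% of lost and 0.707% of the other genes, and in 0.652% of all 17492 genes with a window. AGATAA was in 9.35% of gained (interval 8.11 to 10.7) and 8.74% of lost (7.39 to 10.3), against 10.9% of the others and 11.2% of all genes. CCACACCC was in 4.20% of gained and 5.87% of lost (interval 4.76 to 7.15), against 4.20% of the others and 4.21% of all genes. GAGGAAGT was in 3.34% of gained (66 genes), in 47 of the lost genes and in 3.35% of the others, with 3.64% of all genes. The HindIII site AAGCTT, which bounds the fragments, was in 6.83%, 6.19% and 7.33%, with 7.72% of all genes. A match is not a bound site, and the other ends of contacts, where a distal CTCF site would lie, were not searched here.

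Hox genes, which set positional identity and are active in progenitors, had 5 gained and 1 lost of 33. At this threshold their share of gains was near that of all genes (15.2% against 15.7%), and that of losses was lower (3.03% against 12.4%). At a score of at least 7 there were 10 gained and 1 lost of 26 (38.5% gained there, against 11.9% of all genes). Hoxb3 had 10 and 22 on a fragment that also counts for Hoxb5, Hoxb13 had 3 and 15, Hoxa6 10 and 19, and Hoxd13 7 and 13. Hoxb8, with the most contacts of the list, had 59 and 76 and passed neither rule. Hoxd1 (4 and 1) was the loss. For Hoxb3, Hoxb5 and Hoxb13 no strand was at hand.

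Myeloid regulators had 6 gained and 2 lost of 17 (35.3% and 11.8%, against 15.7% and 12.4% of all genes). Spi1, which encodes PU.1, the ETS factor that opposes Gata1, had contacts on 2 fragments. The one at its lower annotated end (chr2:91080805-91084236) had 9 and 4 contacts, and the one at its higher end, shared with the start of Mybpc3 (chr2:91108722-91123643), had 19 and 2. The HPC list had 5 and 19. Which end is the start is not in the tables used here. The gains included Cebpb (5 and 14), Itgam (3 and 10), Id2 (3 and 8) and Csf3r (3 and 7), and Il6ra (13 and 8) was the other loss. Of 11 members with a contact at the higher threshold only Itgam gained (0 and 3), and Spi1 (8 and 0) and Cebpe (13 and 8) lost. The Spi1 count there was 7 and 0 at the fragment shared with Mybpc3 and 1 and 0 at the lower end. Cebpb had 1 fewer contact in Ery shStag2 at 10.

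Granule protein genes had 3 gained and 3 lost of 16 (18.75% each, against 15.7% and 12.4% of all genes), and 1 and 1 of 10 at a score of at least 7. Camp (4 and 13), Mpo (7 and 13) and Ctsg (2 and 6) gained, while Prtn3 (18 and 7), S100a9 (12 and 6) and Ngp (20 and 13) lost. Mast cell and basophil genes had 4 gained and 1 lost of 16, with gains above and losses below the 15.7% and 12.4% of all genes. At the higher threshold they had 2 and 1 of 12, against 11.9% and 8.53% of all genes. Cpa3, the mast cell carboxypeptidase, had 1 and 9 (14 in HPC), Tpsb2 9 and 16, Hpgds 2 and 6 and Gzmb 3 and 7. The cytokine gene Il13 had 23 and 10. At a score of at least 7 Cpa3 and Hpgds had 0 and 3 each, Tpsb2 2 and 1, Gzmb 2 and 2 and Il13 9 and 4. Megakaryocyte genes had 2 gained and 0 lost of 18 (11.1% and 0%), the gains being Tubb1 (14 and 23) and Gp5 (8 and 12). At a score of at least 7 there were 2 gained and 1 lost of 16, the loss being Nbeal2 (6 and 3).

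Cohesin genes and their regulators had 3 gained and 5 lost of 18 at a score of at least 5 (16.7% and 27.8%, against 15.7% and 12.4% of all genes). At 7 there were 1 gained and 1 lost of 15, with 31 and 33 contacts over the list, so the lead of losses was not seen there. Stag2 itself had 6 contacts in Ery Luc, all scoring under 7, and 0 in both Ery shStag2 and HPC. They lay on a captured fragment at 1 annotated end of Stag2, and the tables used here do not say whether that end is the start. Stag1, which encodes the alternative subunit, had 1 and 0. The largest loss was Espl1 (19 and 3, against 21 in HPC), the separase that cuts cohesin at anaphase, with 18 and 2 under 200 kb. Smc1a (6 and 1), Pds5a (15 and 10) and Esco2 (3 and 0) also lost. Pds5b (3 and 9), Mau2 (5 and 10) and Stag3 (1 and 7) gained, but with contacts between chromosomes included Stag3 had 24 and 9. Over the list contacts under 200 kb numbered 87 and 50, and longer ones 42 and 56.

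Immediate-early genes, induced within minutes of a stimulus, had 6 gained and 1 lost of 24 at a score of at least 5. Gains were above and losses below the 15.7% and 12.4% of all genes. At 7 there were 4 and 3 of 18, both above the 11.9% and 8.53% of all genes. Klf6 had 3 and 15, Dusp2 8 and 19, Ier2 7 and 12, Egr1 5 and 9, Ier5 4 and 7, and Maff 4 and 8, and Fos was the loss (15 and 10). Mitotic genes had 6 gained and 3 lost of 20, both above the 15.7% and 12.4% of all genes. At 7 they had 3 and 1 of 15, with gains above and losses below the shares of all genes. Their calls at 5 were mostly on small counts such as Mad2l1 (7 and 12), Cenpf (0 and 4) and Kif11 (6 and 1). DNA replication genes had 2 gained and 4 lost of 22 (9.09% and 18.2%), and 3 and 3 of 19 at 7. Losses were led by Rpa1 (19 and 9) and the helicase subunit Mcm6 (18 and 11), against gains of Orc3 (4 and 9) and Mcm7 (2 and 5). At a score of at least 7 Rpa1 had 1 and 3, Mcm6 7 and 7, Orc3 0 and 3 and Mcm7 0 and 2. Among contacts scoring at least 10 Mcm6 had 3 and 4. Interferon and antigen processing genes had 5 gained and 4 lost of 21 (23.8% and 19.0%), and 3 and 1 of 18 at 7. They ranged from B2m (8 and 20) and Irf1 (1 and 7) to Irf3 (9 and 1) and Oasl2 (5 and 0). At a score of at least 7 these had 1 and 6, 1 and 0, 3 and 0, and 0 and 0, in that order.

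Cytosolic ribosomal protein genes had 6 gained and 12 lost of 76 (7.89% and 15.8%, against 15.7% and 12.4% of all genes), and 7 and 12 of 69 at a score of at least 7. Rpl41 (28 and 12), Rpl28 (34 and 20), Rpl13a (14 and 5) and Rpl32 (16 and 9) lost, and Rpl37 (17 and 30), Rps24 (4 and 14), Rpl13 (10 and 17) and Rps21 (3 and 8) gained. Replication-dependent histone genes had 9 gained and 0 lost of 58 at a score of at least 5. At 7 there were 2 gained and 5 lost of 58, against 11.9% and 8.53% of all genes. Their share of gains at 5, 15.5%, was near the 15.7% of all genes. Several of them share fragments, as do H1f1, H3c1 and H4c1 (7 and 14). H1f3 had 30 and 46. Clustered protocadherins had 4 gained and 10 lost of 26 (15.4% and 38.5%) at a score of at least 5 and 3 and 0 of 20 at 7, so that direction did not hold. Olfactory receptor genes, which are silent outside the nose, had 73 gained and 81 lost of 692 (10.5% and 11.7%, against 15.7% and 12.4% of all genes). At a score of at least 7 there were 14 and 11 of 345.

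Near contacts made up a smaller share in Ery shStag2 in 20 of the 21 gene lists, the exception being red cell membrane genes (43.7% and 44.8% under 200 kb). Over all named genes this share was 47.7% and 42.6%. It went from 67.4% to 47.2% in the cohesin list, from 62.4% to 49.5% in iron handling and from 61.4% to 47.7% in EPO signalling. Numbers of contacts of 200 kb or more were higher in 19 of the lists.

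Both Myc genes had remote contacts in each list. Myc had 29 and 21 contacts, 13 of them identical pairs, with medians of 1662 and 1625 kb, and its other ends 1625 to 1736 kb away scored up to 18.5 in Ery Luc and 20.8 in Ery shStag2. Mycn had 46 and 41 (30 and 30 at a score of at least 7), 27 of them identical pairs. Etv6, an ETS repressor needed by blood stem cells, had 12 and 16. None of the 3 was called.

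Among other-end fragments, contacts were counted by the captured fragments that met them. Of 90042, 1746 gained (1.94%) and 1338 lost (1.49%). A few appeared in 1 list only. A fragment of 267 bases within Cd244a, an immune receptor gene (chr1:171564087-171564353), was met by no captured fragment in Ery Luc or HPC and by 21 in Ery shStag2, while the listed fragments on both sides had 5 and 6, and 10 and 16. The fragment of Ly6g5b (chr17:35114298-35120067) was met by 21 in Ery Luc, 26 in HPC and none in Ery shStag2. Of those 21 pairs 9 were in Ery shStag2 with the columns swapped, and as a captured fragment it had 32 and 42 contacts. A fragment of Ring1, Rxrb and Slc39a7 (chr17:34023505-34047778) had 19 and 0, with 0 in HPC as well, and that of Map2k7 (chr8:4237882-4239578) had 17 and 0, again with 0 in HPC. The fragment of E4f1 and Pgp (chr17:24453424-24471765) had 0 and 14, with 15 in HPC. Of 4707 other ends met by at least 5 captured fragments in either list, 31 were at 0 in Ery shStag2 and 38 at 0 in Ery Luc. What lists a fragment in 1 pool and not in the other was not tested. Leaving these other ends out changed the calls little, to 2779 gained and 2161 lost.

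Gains and losses were counted along the chromosomes. Of 1242 windows of 2 Mb with a captured fragment, the median held 1 gained and 1 lost fragment. The windows named here were picked by their number of called fragments, which favours windows with many fragments. Over all captured fragments 14.9% gained and 11.6% lost. The end of chromosome 2 (chr2:180000001-182000000) held 17 gained and 3 lost of 55, with 252 contacts in Ery Luc, 340 in Ery shStag2 and 287 in HPC. The histocompatibility region (chr17:34000001-36000000) held 20 gained and 13 lost of 90, and chr17:24000001-26000000 held 18 and 13 of 83. Losses led in chr10:80000001-82000000, with 25 lost and 7 gained of 88 and 667 and 548 contacts, in chr11:98000001-100000000 (26 lost and 14 gained of 96) and in chr7:44000001-46000000 (19 and 9 of 79). In 17 windows at least 5 fragments gained and none lost, and in 6 at least 5 lost and none gained.

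Captured fragments that gained or lost were close in length. Their medians were 5850 bases for gained, 6292 for lost and 5790 for the others, and 79.2% of both kinds held a gene start, against 74.5% of the others. The others are not matched to them, since a call needs a difference of at least 3 contacts. The median mean count of the 2 lists was 6 for gained and for lost fragments and 2.5 for the others. Lost fragments had shorter contacts in Ery Luc, with a median of 185 kb against 238 kb at gained fragments. In Ery shStag2 these medians were 189 and 271 kb.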

How the data were processed

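Promoter capture Hi-C was read in HPC-7 cells. Per the labels' protocols, chromatin was cut with HindIII, ends were biotinylated and religated, and promoters were captured by hybridisation. The deposited lists hold, per the submitters' processing notes, mm10 coordinates with a score for each pair, and both Ery lists start at a score of 5. What program made the score, and from how many reads, is not given in the sources used here. Depth, and the precision it sets, is therefore unknown.

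Distances were taken between fragment midpoints. Fragments were named by gene starts of RefSeq GRCm38.p6 (mm10). Of 21900 protein-coding genes, 17492 had a start in the promoter table, and for the other 4408 both annotated ends were used. Genes named are the 8 largest gains and losses called at both thresholds, up to 4 per direction in each of 21 lists, and a fixed set of regulators. A few others with small counts or no call were named after their values were seen. Members and lists were chosen with earlier results of these data known. Intervals are exact binomial at 95%. Functions were tested on simulated data. Alternatives changed the score, list length, call rule, distance limit, matching and gene ends. Python 3.11.15, pandas 2.3.3 and scipy 1.17.1 were used. Expression tables were not used. A few items are not reported here.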

Additional observations from a re-analysis of the deposited data

How the results depend on the processing

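The calls rest on weak contacts. At a score of at least 10, 460 captured fragments gained and 287 lost, and 411 genes gained and 278 lost. With at least 5 contacts and 2 times required, 1008 fragments gained and 740 lost. With lists of equal length, with contacts between chromosomes, up to 1 Mb only, without X, with captured other ends counted for both or without other ends at 0 in 1 list, the counts of fragments stayed within 1.5 times, as did those of genes where run, also by gene start or end. The shared part of Ery Luc and Ery shStag2 was 65.9% and 63.4% with 1 neighbouring listed fragment allowed, 88.9% and 84.6% for contacts scoring at least 10 in the first list, and 48.1% and 45.5% in either column order. The difference in shares between Ery shStag2 and Ery Luc kept its sign in all 4 distance classes under every alternative run, and at a score of at least 10 it was -2.09, -6.04, 5.62 and 2.51 percentage points, from near to far. Of 136 named genes called at a score of 5, 25 were called the same way at 10, 127 with lists of equal length, 113 with captured other ends counted for both, and 18 under every alternative. Direction reversed for Bcl2l1 (2), Cebpb (-1) and Mcm6 (1 contact more) at a score of 10 and for Stag3 (-15) with contacts between chromosomes. The cause was not tested. No paired analysis was possible because each list pools 2 libraries. Captured other ends counted for both, the left-out other ends, either column order, 10 Mb as the upper limit and the lists without X were chosen after seeing the data.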
